A study of Mus musculus with 4 samples.

Results

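The epidermal keratinization genes are 37 genes of skin and other stratified epithelia, of 23328 genes listed for E16 mouse cerebral cortex. They were named as a list of keratin, cornified envelope, desmosome and barrier genes, and any row of either deposited table with one of these gene names was taken. All 37 were found. The list was drawn up with the counts of these same libraries in view, in which the genes stood out in 1 wild type library, so their counts and the KO to WT differences are a description and carry no test. The list has no numerical threshold. Of the 37 genes, 11 are listed in both deposited tables and 26 only in the table that holds KO 5 and WT 4.

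The study sequenced RNA from cortex dissected on embryonic day 16 from C57BL/6 mice, taken up in Trizol and made into libraries with an Illumina TruSeq RNA kit. The Cd93 KO group had 2 libraries, KO 5 and KO 6, and the wild type (WT) group had 2, WT 1 and WT 4. Cd93 encodes a transmembrane lectin-like receptor of endothelial cells, and the labels say neither which part of the gene was deleted nor whether the libraries stem from separate animals, so spread between libraries may be technical. Of the deposited tables, table A holds KO 6 with WT 1, and table B holds KO 5 with WT 4.

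Total counts were 17555476 in KO 5, 16318317 in KO 6, 17586157 in WT 1 and 17158867 in WT 4. A level is given in CPM, counts scaled to a common library size of 1000000 after edgeR's TMM scaling. A table lists a gene only from 2 counts upwards over its 2 libraries, and a gene missing from a table is given as 0 there. A count of 0 allows a level of up to 3 counts, or 0.169 to 0.185 CPM, by counting error alone. Cd93 had 111 counts in KO 5 and 99 in KO 6, against 680 in WT 1 and 409 in WT 4, so its order followed the labels. The summed level of 10 fetal cortex genes was 5505 CPM in KO 5 and 5239 CPM in KO 6, against 4831 CPM in WT 1 and 5632 CPM in WT 4, so genes of the labelled tissue were abundant in every library. WT 4 stood apart from the other libraries in the epidermal genes, and results are therefore given by library, within each table, and with and without WT 4.

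Epidermis is a stratified epithelium whose dividing basal cells hold one pair of keratins and switch to another pair as they move outwards. In the outer layers the cells build a cornified envelope, a sheet of proteins joined by transglutaminases and coated with lipids, and remain tied together by desmosomes. Most of these genes serve in skin and mucosa and are not known as genes of cortical neurons or glia, while a few, such as Dsp, Sfn, Perp and Anxa1, also serve in other cell types.

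Promoters are shown for 1 gene of each main stage, the basal keratin Krt5, the suprabasal keratin Krt10, and the cornified layer genes Lor and Hrnr. Each line gives the 250 bases before the start of the gene, 5′ to 3′ on the gene's strand, from RefSeq on build GRCm38.p6, and capitals mark a matched motif. The windows are chr15:101712906-101713155 on the minus strand for Krt5, chr11:99389365-99389614 on the minus strand for Krt10, chr3:92083143-92083392 on the minus strand for Lor and chr3:93319499-93319748 on the plus strand for Hrnr.
Krt5 promoter: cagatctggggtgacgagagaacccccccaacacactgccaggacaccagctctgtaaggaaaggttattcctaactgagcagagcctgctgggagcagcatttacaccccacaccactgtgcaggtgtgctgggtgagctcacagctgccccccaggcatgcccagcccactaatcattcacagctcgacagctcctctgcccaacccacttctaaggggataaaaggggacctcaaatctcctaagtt
Krt10 promoter: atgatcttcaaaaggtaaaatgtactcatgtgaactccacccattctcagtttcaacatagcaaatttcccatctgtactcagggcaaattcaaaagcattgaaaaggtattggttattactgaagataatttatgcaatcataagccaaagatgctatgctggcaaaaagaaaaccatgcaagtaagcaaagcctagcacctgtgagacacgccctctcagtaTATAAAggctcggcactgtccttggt
Lor promoter: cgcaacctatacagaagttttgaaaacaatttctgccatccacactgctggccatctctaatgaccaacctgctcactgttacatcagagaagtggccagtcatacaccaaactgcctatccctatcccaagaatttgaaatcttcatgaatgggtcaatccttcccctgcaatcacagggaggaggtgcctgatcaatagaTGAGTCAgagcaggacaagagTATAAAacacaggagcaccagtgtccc
Hrnr promoter: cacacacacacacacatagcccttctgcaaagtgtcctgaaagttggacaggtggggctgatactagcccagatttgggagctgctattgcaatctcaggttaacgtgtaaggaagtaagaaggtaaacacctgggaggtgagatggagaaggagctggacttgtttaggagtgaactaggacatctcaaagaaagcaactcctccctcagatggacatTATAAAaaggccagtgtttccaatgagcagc
The capitals are TATAAA in Krt10, Lor and Hrnr, beginning at -26, -27 and -31 from the gene start, and TGAGTCA at -48 in Lor. Both strands were searched, over 250 bases before to 50 after the start, for the TATA box as TATAAA, AP-1 as TGANTCA, AP-2 as GCCNNNGGC and Grainyhead as AACCGGTT. Promoters were found for 24 of the 37 genes, 28 promoters in all since some genes have several starts. TATAAA was in 8 of these 28 promoters and in 13.6% of all 32851 promoters. TGANTCA was in 6 of the 28 and in 7.81% of all, GCCNNNGGC in 4 and 16.6%, and AACCGGTT in 0 and 0.146%. A match describes letters in this window and no more.

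Summed over the 37 genes, the level was far higher in WT 4 than in any other library. It was 24.7 CPM in KO 5 and 26.2 CPM in KO 6, against 26.7 CPM in WT 1 and 405 CPM in WT 4. The counts behind these sums were 434 in KO 5 and 425 in KO 6, against 476 in WT 1 and 6907 in WT 4. The KO libraries and WT 1 lay together, and WT 4 lay outside their range. The mean was 25.5 ± 1.004 CPM in KO and 216 ± 268 CPM in WT (SD, n = 2 each), so the spread between the WT libraries was larger than the difference of the means. The log2 fold change of the sum, KO over WT, was -3.09 with all libraries and -0.072 without WT 4. In table A, KO 6 and WT 1 differed little, with a ratio of WT 1 to KO 6 of 1.02, while in table B the sum was 16.4-fold lower in KO 5 than in WT 4. In bulk tissue, fewer cells of a type and less RNA per cell cannot be told apart.

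Each of the 37 genes had its highest level in WT 4. Of the 18039 genes with at least 20 counts over the 4 libraries, 21.4% were highest in WT 4. Over 90% of the summed CPM lay in WT 4 for 28 of the 37 genes, against 0.316% of all genes, that is 57 genes, of which 29 were outside the list. The median share in WT 4 was 99.7% over the 37 genes and 24.9% over all genes, and the lowest share was 31.2%, in Tgm3. By the same measure 8 genes of the whole table lay over 90% in WT 1, and 0 in KO 5 or KO 6. At least 3 counts were present for 10 genes in KO 5 and 10 in KO 6, against 10 in WT 1 and 37 in WT 4.

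**Figure D1:**
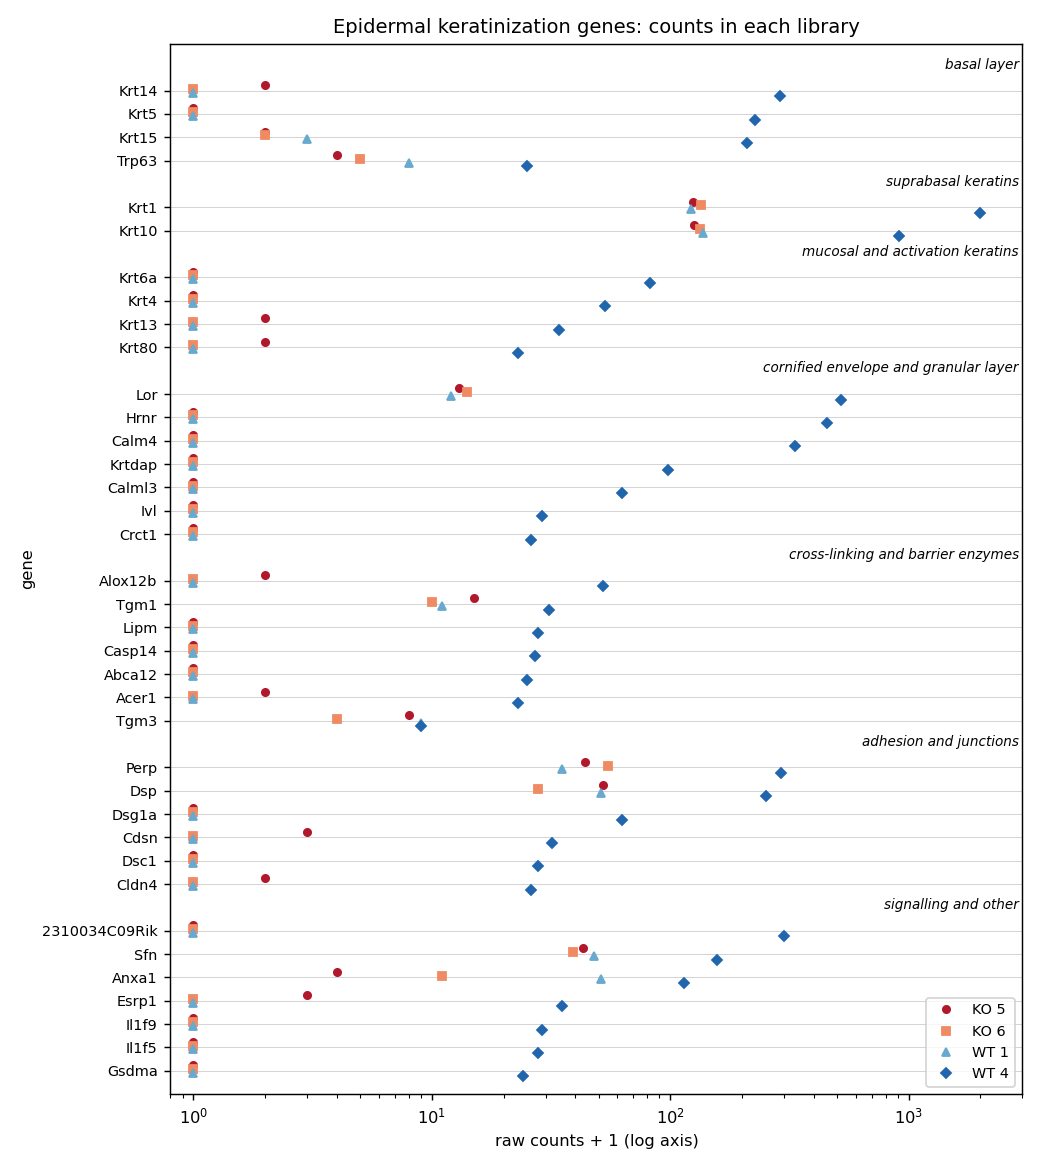
Raw counts plus 1 (log axis) of the 37 genes, grouped by role, 1 point for each library (KO 5, KO 6, WT 1, WT 4), set slightly apart in height on a row. WT 4 points lie between 8 counts in Tgm3 and 1990 counts in Krt1, to the right of the other libraries in every row except Tgm3, where WT 1 also had 8 counts.

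**Figure D2:**
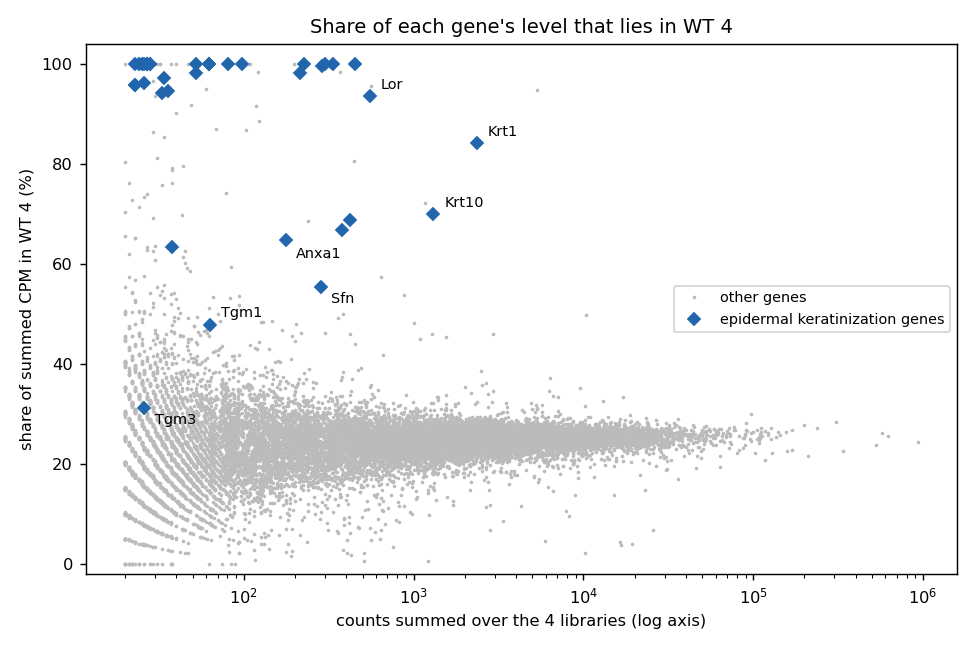
Share of each gene's CPM, summed over the 4 libraries, that lies in WT 4 (percent), against its summed counts (log axis), for genes with at least 20 counts. Grey points are other genes, with a median of 24.9% over all genes, and blue diamonds are the 37 epidermal genes, 28 of them above 90%.

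The basal layer genes were nearly without counts outside WT 4. Krt5 and Krt14 encode the keratin pair of dividing basal cells. Krt5 (ENSMUSG00000061527, chromosome 15, 101707070 to 101712891, minus strand) had 0 counts in KO 5 and 0 in KO 6, against 0 in WT 1 and 225 in WT 4. Krt14 (ENSMUSG00000045545, chromosome 11, 100203162 to 100207548, minus strand) had 1 count in KO 5 and 0 in KO 6, against 0 in WT 1 and 288 in WT 4. Both genes of the pair were above the floor of 3 counts in WT 4 only, where Krt5 made up 43.9% of their counts (95% exact binomial interval 39.5% to 48.3%). Krt5 was at least 77.2-fold lower in KO 5 than in WT 4, taking 3 counts as the floor, and the ratio of KO 5 to WT 4 for Krt14 was 0.00337 (95% counting interval 8.51e-05 to 0.0189). Krt15, another basal keratin, had 1 count in KO 5 and 1 in KO 6, against 2 in WT 1 and 209 in WT 4. Trp63, which encodes the p63 transcription factor needed for stratified epithelium, had 3 counts in KO 5 and 4 in KO 6, against 7 in WT 1 and 24 in WT 4. For Krt15 and Trp63 both KO libraries lay below both WT libraries, with few counts outside WT 4. The 4 genes together had 0.285 CPM in KO 5 and 0.308 CPM in KO 6, against 0.506 CPM in WT 1 and 43.8 CPM in WT 4.

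The suprabasal keratins Krt1 and Krt10, which replace the basal pair as keratinocytes leave the basal layer, were counted in every library. Krt1 (ENSMUSG00000046834, chromosome 15, 101845428 to 101850786, minus strand) had 123 counts in KO 5 and 134 in KO 6, against 121 in WT 1 and 1990 in WT 4. Krt10 (ENSMUSG00000019761, chromosome 11, 99385254 to 99389364, minus strand), whose promoter is printed above, had 125 counts in KO 5 and 132 in KO 6, against 136 in WT 1 and 912 in WT 4. The KO libraries and WT 1 differed little in either keratin, and the genotypes overlapped in both. WT 1 was the lowest library in Krt1, and in Krt10 KO 6 at 8.13 CPM lay above WT 1 at 7.64 CPM. In table A the log2 ratio of KO 6 to WT 1 was 0.27 for Krt1 and 0.087 for Krt10. In table B the log2 ratio of KO 5 to WT 4 was -4.04 for Krt1 and -2.89 for Krt10. The balance of the pair also differed by library, with a larger share of Krt1 in WT 4. Krt1 made up 49.6% of the pair's counts in KO 5 (95% exact interval 43.2% to 56.0%) and 50.4% in KO 6 (44.2% to 56.5%), against 47.1% in WT 1 (40.8% to 53.4%) and 68.6% in WT 4 (66.8% to 70.3%). The pair held 57.1% of all counts of the 37 genes in KO 5 and 62.6% in KO 6, against 54.0% in WT 1 and 42.0% in WT 4.

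Keratins of mucosa and of activated epidermis were counted almost only in WT 4. Krt4 and Krt13 form the keratin pair of the layers above the basal layer in mouth and oesophagus. Krt4 had 0 counts in KO 5 and 0 in KO 6, against 0 in WT 1 and 52 in WT 4. Krt13 had 1 count in KO 5 and 0 in KO 6, against 0 in WT 1 and 33 in WT 4. Krt6a, a keratin of hair follicles and wounded epidermis, had 0 counts in KO 5 and 0 in KO 6, against 0 in WT 1 and 81 in WT 4. Its transcript shares 68.2% of its 25-base words with other genes, chiefly the near copy Krt6b, so its counts are uncertain. Krt80, a type II keratin, had 1 count in KO 5 and 0 in KO 6, against 0 in WT 1 and 22 in WT 4. The 4 genes together had 0.114 CPM in KO 5 and 0 CPM in KO 6, against 0 CPM in WT 1 and 11.03 CPM in WT 4.

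Genes of the cornified envelope and granular layer took a larger part of the set in WT 4 than elsewhere. They held 2.76% of the counts of the 37 genes in KO 5 and 3.06% in KO 6, against 2.31% in WT 1 and 21.9% in WT 4. Lor (ENSMUSG00000043165, chromosome 3, 92080271 to 92083142, minus strand) encodes loricrin, the main protein of the cornified envelope, and had 12 counts in KO 5 and 13 in KO 6, against 11 in WT 1 and 517 in WT 4. It was the single gene of this group with counts in every library, and its log2 ratio was 0.32 for KO 6 over WT 1 and -5.25 for KO 5 over WT 4. Hrnr (ENSMUSG00000041991, chromosome 3, 93319749 to 93333570, plus strand) encodes hornerin, a relative of filaggrin, and had 0 counts in KO 5 and 0 in KO 6, against 0 in WT 1 and 452 in WT 4. Calm4 (ENSMUSG00000033765, chromosome 13, 3837757 to 3838673, plus strand) encodes a calmodulin-like protein of skin and had 0 counts in KO 5 and 0 in KO 6, against 0 in WT 1 and 334 in WT 4. Hrnr was at least 155-fold and Calm4 at least 115-fold lower in KO 5 than in WT 4, the widest gaps among the genes at 0. The same 0 in KO 5, KO 6 and WT 1 held for Krtdap, a secreted protein of differentiating keratinocytes, with 97 counts in WT 4, and for Calml3, a second calmodulin-like protein, with 62 in WT 4. It also held for Ivl, which encodes the early envelope protein involucrin, with 28 counts in WT 4, and for Crct1, a cysteine-rich gene of the epidermal differentiation complex, with 25 in WT 4.

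Among the enzymes of cross-linking and the lipid barrier, the transglutaminases departed from the rest. Tgm1 encodes the membrane-bound transglutaminase of keratinocytes and had 14 counts in KO 5 and 9 in KO 6, against 10 in WT 1 and 30 in WT 4. Tgm3, the transglutaminase of the upper epidermis and hair, had 7 counts in KO 5 and 3 in KO 6, against 8 in WT 1 and 8 in WT 4. Tgm3 thus lay no higher in WT 4 than in WT 1 by counts, and it was the gene of the set with the least contrast. Alox12b, a lipoxygenase that oxidises barrier ceramides, had 1 count in KO 5 and 0 in KO 6, against 0 in WT 1 and 51 in WT 4. Acer1, an alkaline ceramidase, had 1 count in KO 5 and 0 in KO 6, against 0 in WT 1 and 22 in WT 4. Counts of 0 in KO 5, KO 6 and WT 1 were found for Lipm, a lipase, with 27 counts in WT 4, for Casp14, a caspase that takes part in filaggrin breakdown, with 26 in WT 4, and for Abca12, a lipid carrier of lamellar granules, with 24 in WT 4. Lipm overlaps exons of Ankrd22 on the other strand and shares 45.2% of its 25-base words, so its counts are uncertain.

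Of the 6 adhesion genes, Perp and Dsp were counted in every library. Perp (ENSMUSG00000019851, chromosome 10, 18845020 to 18857073, plus strand), a tetraspan protein of desmosomes, had 43 counts in KO 5 and 54 in KO 6, against 34 in WT 1 and 290 in WT 4. Dsp (ENSMUSG00000054889, chromosome 13, 38151294 to 38198577, plus strand) encodes desmoplakin, which ties desmosomes to keratin filaments, and had 51 counts in KO 5 and 27 in KO 6, against 50 in WT 1 and 252 in WT 4. In both genes a KO library lay above WT 1, so the genotypes overlapped. The skin desmosomal cadherins Dsg1a and Dsc1 had 0 counts in KO 5, KO 6 and WT 1, with 62 counts of Dsg1a and 27 of Dsc1 in WT 4. Cdsn, which encodes corneodesmosin of the outermost layers, had 2 counts in KO 5 and 0 in KO 6, against 0 in WT 1 and 31 in WT 4. The tight junction gene Cldn4 had 1 count in KO 5 and 0 in KO 6, against 0 in WT 1 and 25 in WT 4. Dsg1a shares 44.2% of its 25-base words with other genes, chiefly Dsg1b.

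Among the signalling genes, Anxa1 differed between KO and WT in both tables and most others in table B alone. Anxa1 (ENSMUSG00000024659, chromosome 19, 20373428 to 20390944, minus strand) encodes a phospholipid-binding annexin found in epithelia, leukocytes and other cells, and had 3 counts in KO 5 and 10 in KO 6, against 50 in WT 1 and 113 in WT 4. Both KO libraries lay below both WT libraries, with log2 ratios of -1.999 for KO 6 over WT 1 and -4.55 for KO 5 over WT 4. In 7 dermis and fibroblast genes, led by Col3a1, the summed level was highest in WT 1, whereas Anxa1 was highest in WT 4. That sum was 35.9 CPM in KO 5 and 49.98 CPM in KO 6, against 448 CPM in WT 1 and 77.0 CPM in WT 4. In edgeR 0 genes of that list passed with all libraries, beside 0.0122% of all genes called lower. With the deposited table as a block 5 passed as lower in KO (Col1a1, Col1a2, Col3a1, Dcn and Lum), beside 0.165% of all genes. Dpt, named because of its zeros, had 0 counts in KO 5, KO 6 and WT 1 and 10 in WT 4. The part of those cells in the Anxa1 difference was not tested. Sfn, which encodes the epithelial 14-3-3 sigma protein, had 42 counts in KO 5 and 38 in KO 6, against 47 in WT 1 and 156 in WT 4, and shares 31.7% of its 25-base words with other genes, chiefly Gm7850. Esrp1, an epithelial splicing regulator, had 2 counts in KO 5 and 0 in KO 6, against 0 in WT 1 and 34 in WT 4. Counts of 0 in KO 5, KO 6 and WT 1 were found for the interleukin 36 family genes Il1f9, with 28 counts in WT 4, and Il1f5, with 27 in WT 4, and for Gsdma, a skin gasdermin, with 23 in WT 4. The gene 2310034C09Rik (chromosome 16, 88758847 to 88759792, plus strand) had 0 counts in those 3 libraries and 300 in WT 4, and 25.3% of its 25-base words are also in Krtap13.

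Counted over all roles, 18 of the 37 genes had 0 counts in KO 5, KO 6 and WT 1, and these 18 had 1900 counts in WT 4. Another 9 had at most 3 counts in each of those libraries, and 10 had more in at least 1 of them. Krt1, Krt10, Lor, Perp, Dsp and Sfn had at least 10 counts in every library, together 396 in KO 5 and 398 in KO 6, against 399 in WT 1 and 4117 in WT 4. These 6 genes held 91.2% of the counts of the set in KO 5 and 93.6% in KO 6, against 83.8% in WT 1 and 59.6% in WT 4. The ratio of KO 5 to WT 4 was not the same over the genes. It was 0.262 for Sfn, 0.133 for Krt10, 0.0601 for Krt1 and 0.0226 for Lor, while Hrnr, with nearly as many counts in WT 4 as Lor, was at 0 in KO 5.

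Within WT 4, levels were compared between genes per kilobase of exon. Krt1 was highest at 26.4 CPM per kilobase (95% counting interval 25.3 to 27.6), and Krt10 at 25.3 (23.7 to 27.0) did not differ from it beyond counting error. Calm4 followed at 21.4, 2310034C09Rik at 18.6 and Lor at 17.0 CPM per kilobase, neighbours whose intervals overlap. A gap beyond counting error followed. Krt14 at 9.61, Perp at 8.72 and Krtdap at 8.38 CPM per kilobase came next, again with overlapping intervals. Krt15 was at 6.94 and Krt5 at 6.01 CPM per kilobase. Hrnr, with a transcript of 11187 bases, dropped to 2.37 CPM per kilobase, and Tgm3 at 0.114 and Abca12 at 0.0951 were lowest. Krt1 has 4415 bases of annotated exon and a longest coding transcript of 2455 bases, and by that transcript its level was 47.6 CPM per kilobase, above Krt10 at 25.6.

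**Figure D3:**
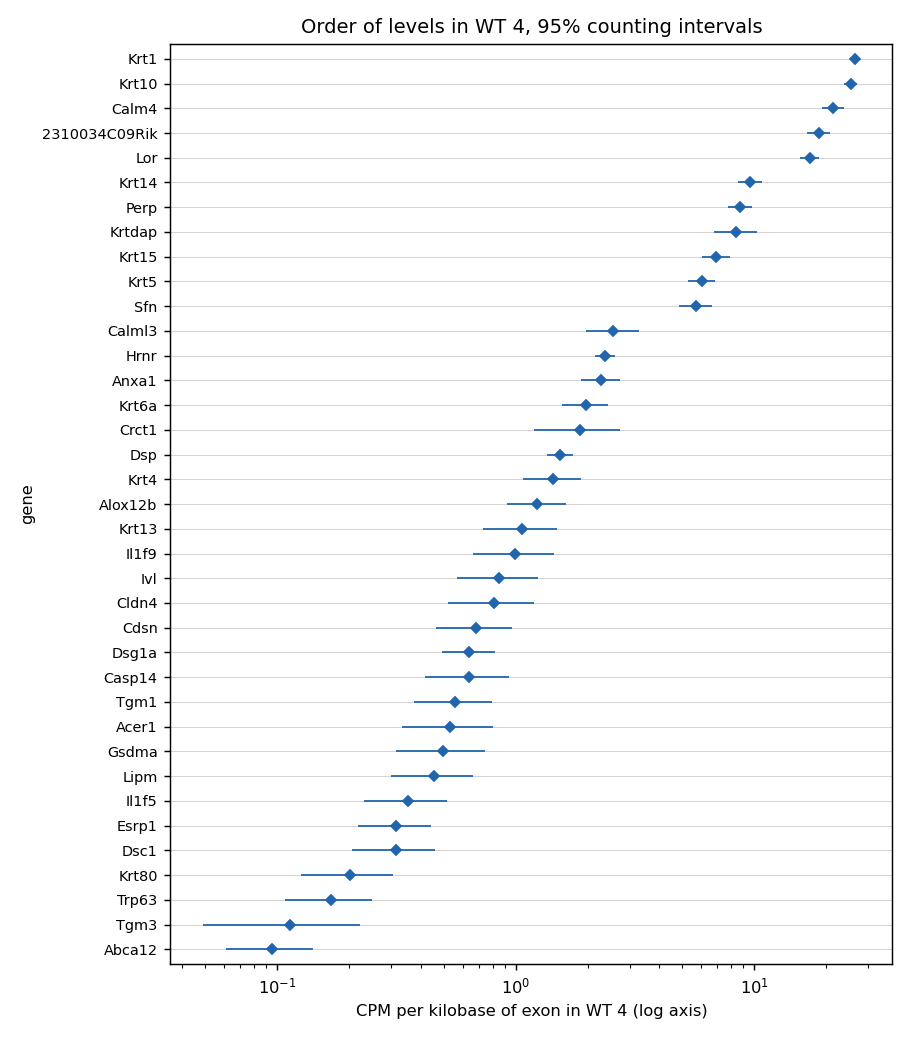
Level of each of the 37 genes in WT 4, in CPM per kilobase of exon (log axis), with bars for the 95% counting interval. Krt1 and Krt10 lead at 26.4 and 25.3 CPM per kilobase, and the intervals of most neighbours in the order overlap.

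Both genotypes were then set against each other at once. Both KO libraries lay below both WT libraries for 5 genes, Krt15, Trp63, Tgm3, Sfn and Anxa1, that is for 5 of 37 beside 11.3% of all listed genes, a share near that background. The median log2 fold change of the 37 genes, KO over WT with a prior count of 2, was -1.93. Over the 16377 genes with enough counts to be tested, of which 8 are in the list, it was -0.0036. A mixed measure gave -2.10 for the 37 genes. For the 18 genes at 0 in both KO libraries it took the floor of 3 counts over the mean WT CPM. For the other genes it kept the log2 fold change above, so -2.10 and -1.93 are not like for like. Within table A, where 26 of the genes are not listed and stand at 0 in both libraries, the median was 0, and the values ran from -1.999 in Anxa1 to 0.76 in Perp. Within table B the median was -3.87, and -3.21 with zeros at the floor, and the values ran from -7.84 in Hrnr to -0.18 in Tgm3. The 2 tables share no library, and they gave different values for the same genes.

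A fit over all genes with edgeR's quasi-likelihood test and Benjamini-Hochberg adjustment at 0.05 found 2 genes lower and 0 higher in KO among 16377 tested, and 314 at an unadjusted p under 0.05. The 2 genes, Gm6969 and Gm9855, are not in the epidermal list. Of the 37 genes 8 had enough counts to be tested and 0 were called, beside 0.0122% of all genes called lower. Without WT 1, the fit tested 36 of the 37 and called 32 lower in KO, beside 0.476% of all genes, and the 32 were 39.5% of its 81 lower calls. Without WT 4, it tested 8 and called 1 lower, Anxa1, beside 1.55% of all genes. Without KO 5 it called 0 of the 37, beside 0.029% of all genes, and without KO 6 also 0, beside 0.0348%. DESeq2 with all libraries called 1 of them lower, Anxa1, beside 0.0366% of genes, and edgeR with the deposited table as a block called 0, beside 0.165%. Since the list was chosen on these counts, these numbers show which library the calls come from and are no test of the list. In the authors' deposited table B, which sets KO 5 alone against WT 4 alone, 35 of the 37 genes carry the authors' mark of a significant decrease, beside 1.6% of its genes, and make up 10.1% of all genes so marked. In the authors' deposited table A, of KO 6 against WT 1, 1 gene is marked lower, Anxa1, beside 3.59% of its genes, and 0 are marked higher, beside 1.08%.

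**Figure D4:**
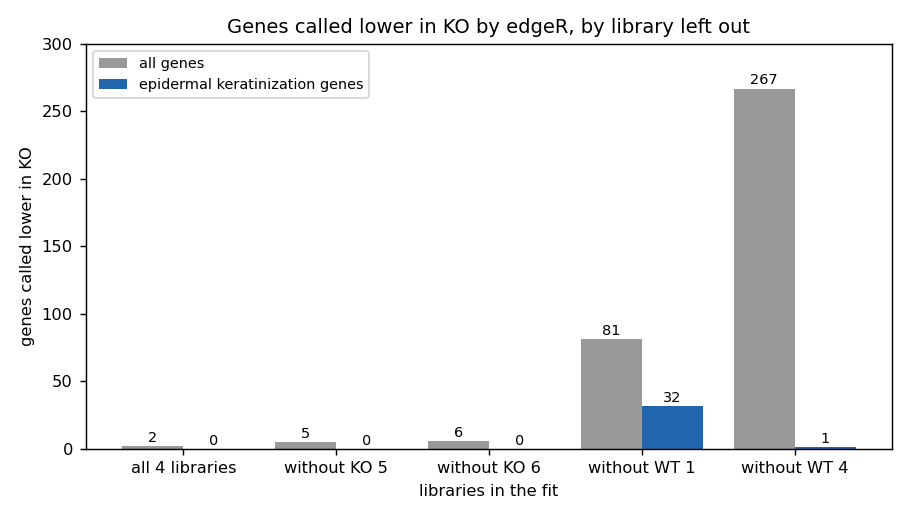
Number of genes called lower in KO by edgeR at an adjusted p of 0.05, over all genes (grey) and among the 37 epidermal genes (blue), with all 4 libraries and with each library left out. Of the epidermal genes 32 are called without WT 1, 1 without WT 4 and 0 in the other fits.

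Other epidermal genes, taken as 8 lists that leave out the 37, were also highest in WT 4 in many cases. These lists hold 118 listed genes, 80 of them with at least 20 counts, of which 53 were highest in WT 4, or 66.3% beside 21.4% of all genes. Over 90% of the CPM lay in WT 4 for 13 of them. Of 46 genes tested with all libraries, 0 were called. The fits without WT 1 or without WT 4 leave a lone WT library and tested other sets of genes, so their calls are not set beside these 46. The lists were chosen with results of these libraries known, and these counts say nothing of a cause.

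By list, other keratins summed to 2.22 CPM in KO 5 and 4.68 CPM in KO 6, against 5.45 CPM in WT 1 and 43.8 CPM in WT 4. Of its 8 genes with at least 20 counts, 6 were highest in WT 4. Krt77, a keratin of embryonic epidermis and sweat ducts, led with 10 counts in KO 5 and 7 in KO 6, against 8 in WT 1 and 533 in WT 4. Krt7, a keratin of simple epithelia, had 0 counts in KO 5 and 2 in KO 6, against 1 in WT 1 and 57 in WT 4. Krt222 did not follow, with 14 counts in KO 5 and 36 in KO 6, against 38 in WT 1 and 29 in WT 4. Krt19, another simple epithelial keratin, had 0 counts in KO 5 and 2 in KO 6, against 3 in WT 1 and 29 in WT 4. Other cornified envelope precursors summed to 0.570 CPM in KO 5 and 0.739 CPM in KO 6, against 0.562 CPM in WT 1 and 8.62 CPM in WT 4. The small proline-rich envelope genes Sprr1a, Sprr3 and Sprr1b had 0 counts in KO 5, KO 6 and WT 1 and 83, 30 and 14 in WT 4, while Tchh, the trichohyalin gene of hair sheath, had 10 counts in KO 5 and 12 in KO 6, against 10 in WT 1 and 9 in WT 4.

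Other desmosome and plaque genes summed to 120 CPM in KO 5 and 118 CPM in KO 6, against 123 CPM in WT 1 and 137 CPM in WT 4. Of 9 genes with at least 20 counts, 6 were highest in WT 4. Pkp4 and Jup, which serve in many tissues, made up most of the sum. Pkp4 had 1367 counts in KO 5 and 1302 in KO 6, against 1436 in WT 1 and 1234 in WT 4, and Jup had 634 in KO 5 and 534 in KO 6, against 668 in WT 1 and 685 in WT 4. The epidermal plakophilin Pkp1 had 0 counts in KO 5 and 1 in KO 6, against 1 in WT 1 and 119 in WT 4. The envelope plakin Ppl had 5 counts in KO 5 and 4 in KO 6, against 5 in WT 1 and 108 in WT 4. Other barrier lipid and protease genes summed to 129 CPM in KO 5 and 128 CPM in KO 6, against 134 CPM in WT 1 and 181 CPM in WT 4. Of 15 genes with at least 20 counts, 13 were highest in WT 4, and the median share of CPM in WT 4 over the 15 was 32.8%. Ugcg, a glucosylceramide synthase of most cells, had 1147 counts in KO 5 and 1014 in KO 6, against 1103 in WT 1 and 1293 in WT 4. Elovl4, which elongates fatty acids, had 693 counts in KO 5 and 678 in KO 6, against 742 in WT 1 and 794 in WT 4. The widest contrast among the leading genes was in Asprv1, a skin aspartic protease, which had 33 counts in KO 5 and 22 in KO 6, against 32 in WT 1 and 358 in WT 4. Epithelial junction and surface genes summed to 26.5 CPM in KO 5 and 26.5 CPM in KO 6, against 29.0 CPM in WT 1 and 53.6 CPM in WT 4, and 9 of its 14 genes with at least 20 counts were highest in WT 4. Cldn3, a tight junction gene, had 205 counts in KO 5 and 164 in KO 6, against 137 in WT 1 and 209 in WT 4. Lgals7, an epithelial galectin, had 46 counts in KO 5 and 36 in KO 6, against 40 in WT 1 and 192 in WT 4.

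In their sums, the remaining epidermal lists differed less, or were highest in another library. Basal layer and basement membrane genes, led by Dst with 3976 counts in KO 5 and 3722 in KO 6, against 3890 in WT 1 and 3880 in WT 4, summed to 310 CPM in KO 5 and 303 CPM in KO 6, against 309 CPM in WT 1 and 310 CPM in WT 4. Tfap2c led the epidermal transcription factors, with 831 counts in KO 5 and 485 in KO 6, against 501 in WT 1 and 527 in WT 4, and cortical progenitors also express it. That list summed to 57.0 CPM in KO 5 and 38.7 CPM in KO 6, against 39.5 CPM in WT 1 and 50.7 CPM in WT 4. The list of the interleukin 1 family, alarmins and serpins summed to 15.4 CPM in KO 5 and 13.9 CPM in KO 6, against 26.9 CPM in WT 1 and 24.7 CPM in WT 4. Its leading genes, S100a16 and Il18, were highest in WT 1. Of its 9 genes with at least 20 counts, however, 5 were highest in WT 4. Over 90% of the CPM lay in WT 4 for 4 of them. The calcium-binding gene S100a16 had 136 counts in KO 5 and 102 in KO 6, against 281 in WT 1 and 153 in WT 4, and the cytokine gene Il18 had 98 in KO 5 and 95 in KO 6, against 155 in WT 1 and 70 in WT 4. Next came Serpinb5, a serpin of epithelia, which had 1 count in KO 5 and 2 in KO 6, against 1 in WT 1 and 45 in WT 4.

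Markers of other cells that lie near the cortex showed no excess in WT 4 of like size, summed over each list. Melanocyte genes summed to 19.9 CPM in KO 5 and 17.1 CPM in KO 6, against 15.8 CPM in WT 1 and 22.0 CPM in WT 4, mostly Dct. The melanocyte regulators Sox10 and Mitf were highest in WT 1, with 23 and 14 counts in KO 5 and 49 and 25 in KO 6, against 61 and 32 in WT 1 and 35 and 18 in WT 4. The pigment gene Pmel had 4 counts in KO 5 and 3 in KO 6, against 4 in WT 1 and 19 in WT 4. Skeletal muscle genes summed to 3.88 CPM in KO 5 and 6.65 CPM in KO 6, against 4.38 CPM in WT 1 and 5.63 CPM in WT 4. Bone and cartilage genes summed to 70.9 CPM in KO 5 and 44.9 CPM in KO 6, against 49.95 CPM in WT 1 and 48.8 CPM in WT 4. Choroid plexus genes summed to 6.10 CPM in KO 5 and 18.7 CPM in KO 6, against 18.5 CPM in WT 1 and 4.99 CPM in WT 4. Red cell genes summed to 765 CPM in KO 5 and 1466 CPM in KO 6, against 1064 CPM in WT 1 and 1008 CPM in WT 4. The hair shaft list summed to 346 CPM in KO 5 and 247 CPM in KO 6, against 202 CPM in WT 1 and 337 CPM in WT 4, nearly all Lhx2, which the cortex expresses, but its keratin-associated gene Krtap13 had 0 counts in KO 5 and 1 in KO 6, against 1 in WT 1 and 319 in WT 4. With all libraries and no block 0 genes of any of the 16 lists were called, and with the deposited table as a block 5 were, all of them the dermis and fibroblast genes named with Anxa1.

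**Figure D5:**
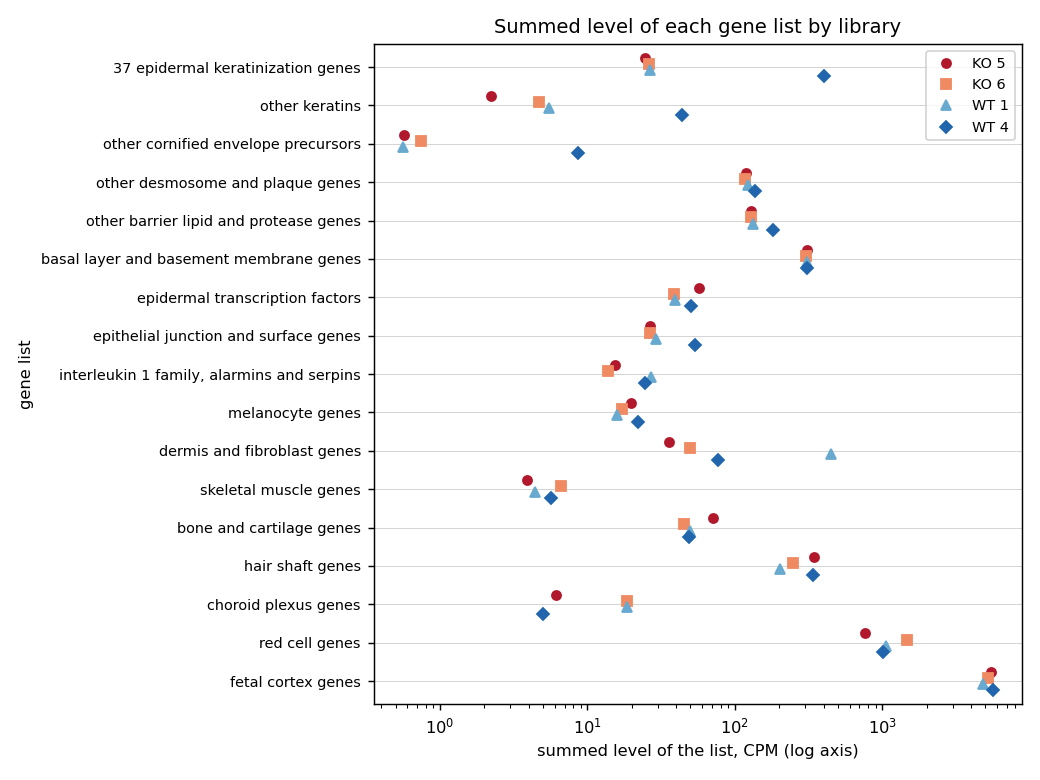
Summed level in CPM (log axis) of the 37 epidermal genes and of 16 other gene lists, 1 point for each library (KO 5, KO 6, WT 1, WT 4). WT 4 stands apart in the epidermal genes, at 405 CPM, in other keratins and in other cornified envelope precursors, and WT 1 stands apart in dermis and fibroblast genes, at 448 CPM.

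The 12 genes outside the list whose pattern was most like it, by the share of CPM in WT 4 over the 4 libraries with at least 20 counts, all had 0 counts in KO 5, KO 6 and WT 1. Among them were 4930553J12Rik with 198 counts in WT 4, Psapl1 with 109, Trim29 with 107, Ly6d with 97, Sprr1a with 83, Pla2g2f with 60, Stfa3 with 50, Spink5 with 47, Lypd5 with 37, Pkp3 with 32 and Serpinb12 with 32. Ties at 100% were ordered by counts. Of those named, Ly6d, Sprr1a, Spink5, Pkp3 and Serpinb12 were already in one of the other lists.

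Position was not used to choose the genes, and 20 of the 37 lay within 1000000 bases of another of them, in 6 clusters, while the 37 were spread over 15 chromosomes. Positions are those of the deposited tables, which are on GRCm38 by comparison with GENCODE release M21. An interval of chromosome 11 (98664351 to 100207548) held Gsdma and the type I keratin genes Krt10, Krt13, Krt15 and Krt14. Of 19 other genes there with at least 20 counts, most of them not keratin genes, 2 were highest in WT 4. For 0 of them did over 90% of the CPM lie in WT 4. The keratin genes among them, Krt19 and Krt222, had 85.4% and 24.8% of their CPM in WT 4. The type II keratin cluster (chromosome 15, 101349571 to 101924735) held Krt80, Krt6a, Krt5, Krt1 and Krt4. Of 3 other genes there with at least 20 counts, 2 were over 90% in WT 4, Krt7 and Krt77. The remaining gene, Krt73, had 9.92% of its CPM in WT 4. The epidermal differentiation complex (chromosome 3, 92080271 to 93333570) held Lor, Ivl, Crct1 and Hrnr. Of 4 other genes there with at least 20 counts, 2 were over 90% in WT 4, Sprr3 and Sprr1a. The others, Gm9774 and Gm4202, had 12% and 24% of their CPM in WT 4. Calml3 and Calm4 were neighbours on chromosome 13, Dsc1 and Dsg1a on chromosome 18, and Il1f9 and Il1f5 on chromosome 2.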

How the data were processed

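The whole counts per Ensembl gene were deposited by the authors in 2 tables, per the file headers, each with 1 KO and 1 WT library. Bowtie2 2.2.3, TopHat2 2.0.12, HTSeq 0.6.0 and mm9 are named in the submitters' processing notes, and their roles and the strand setting of the counting are not given in the sources used here, so reads of genes overlapping on opposite strands cannot be told apart. Positions in the tables follow GRCm38: 92.2% of 23279 genes, and 30 of the 37 epidermal genes, have the start and end of GENCODE release M21. The authors also give CPM, in which each count is divided by the library total and a zero stands as 0.5 read. Their fold change, a ratio of KO to WT CPM, and its log2 were deposited for each gene of a table. Their p-value, from an unnamed tool, sets a single KO library against a single WT library, and the authors marked genes at an adjusted p-value of 0.05 and a 2-fold change.

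Tables were joined over 23328 genes with a missing gene as 0. KO was compared with WT in R 4.3.3 with edgeR 4.0.16 (filterByExpr, TMM, quasi-likelihood test, two-sided, n = 2 each). The edgeR fit was also run on simulated data. Alternatives, not run on simulated data, were limma 3.58.1 and DESeq2 1.42.0. Other steps used Python 3.11.15, pandas 2.3.3, scipy 1.17.1 and matplotlib 3.10.9. CPM were recomputed with TMM factors, and log2 ratios of single genes use a prior count of 2. Counting intervals are exact at 95%, and neither they nor the floors go beyond counting error, as PCR copies carry no molecular identifiers here. Levels per kilobase use the union of GENCODE exons. Shared 25-base words were counted between a gene's longest coding transcript and all transcripts of other genes, and 11 of the 37 genes share over 10% of them. Exons or introns of 14 of the 37 overlap another gene. The deposited table as a block, other scalings and filters, and each library left out were tried as alternatives.

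The 37 genes and the 16 other lists were chosen with earlier results of these data known. Counts are printed for each of the 37, for genes among the 4 of highest count in each other list, and for the 12 genes of most similar share in WT 4, of which 1 is not reported here. Which of those 4 to print, and the genes Dpt and Lum, were chosen after their values were seen.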

Additional observations from a re-analysis of the deposited data

How the results depend on the processing

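The genotypes share no replicate numbers, so the one pairing that could be fitted is by deposited table. The table as a block gave 29 calls over all genes against 2 without it, with 0 of the 37 epidermal genes, and DESeq2 gave 8 calls with 1 of them, Anxa1. Leaving out 1 library gave 5 to 319 calls, in fits that assume the lone library of a group to vary like the other group's. The log2 fold change of the summed level of the 37 genes ran from -3.99 to -0.072 when 1 library was left out, and was -0.072 without WT 4. The median log2 fold change of the 37 was -2.84 with a prior count of 0.5 and -1.37 with a prior count of 5, and ran from -3.87 to 0 when 1 library was left out. Each of the 37 was lower in KO under both prior counts and without KO 5, KO 6 or WT 1, while without WT 4 7 were lower, 12 higher and 18 at 0 in both groups. All 37 remained highest in WT 4 under size factors, total counts and a missing gene as 1 count. At a minimum of 1 count, 19 genes were detected in KO 5 and 11 in KO 6, against 11 in WT 1 and 37 in WT 4. At a minimum of 10 counts, 7 were detected in KO 5 and 7 in KO 6, against 8 in WT 1 and 36 in WT 4. Calls in each list were also counted in alternatives added after the data were seen. With the table as a block they were 5 in dermis and fibroblast genes and 0 in the others, and without WT 4 they were 6 in dermis and fibroblast genes, and 1 each in barrier lipid and protease genes, in the interleukin 1 list and in red cell genes.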

Other observations

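Among genes chosen after their values were seen, some with most of their level in WT 4 are not known as epidermal genes. The processed pseudogene Gm13394 had 83 counts in KO 5 and 97 in KO 6, against 101 in WT 1 and 5067 in WT 4, that is 94.8% of its CPM in WT 4. The processed pseudogene Gm13092 had 2 counts in KO 5 and 4 in KO 6, against 4 in WT 1 and 108 in WT 4. Rps18-ps3, a ribosomal protein pseudogene, had 15 counts in KO 5 and 18 in KO 6, against 298 in WT 1 and 828 in WT 4, so both KO libraries lay below both WT libraries. Genes of 2 other kinds also stood out. Dmkn, which encodes the secreted skin protein dermokine, had 2 counts in KO 5 and 2 in KO 6, against 2 in WT 1 and 362 in WT 4. The mast cell proteases Cpa3 and Cma1 had 2 counts each in KO 5, and 2 and 5 in KO 6, against 2 and 3 in WT 1 and 16 and 17 in WT 4.

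The tables also carry gene ontology terms. Genes of the term keratinization other than the 37 summed to 693 CPM in KO 5 and 735 CPM in KO 6, against 721 CPM in WT 1 and 732 CPM in WT 4. That sum is led by Cdc42 and Kazn, which most tissues express. Of the 15 genes of this term with at least 20 counts, 8 were highest in WT 4, beside 21.4% of all genes. Their median share of CPM in WT 4 was 26.9%, beside 24.9% over all genes. Genes of the term cornified envelope other than the 37 summed to 135 CPM in KO 5 and 129 CPM in KO 6, against 127 CPM in WT 1 and 145 CPM in WT 4, a sum carried mostly by Kazn and Efr3a. Of its 7 genes with at least 20 counts, 6 were highest in WT 4, with a median share of 46.7%.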
